A study of Mus musculus with 33 samples.

Results

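The protocadherins are every gene whose symbol starts with Pcdh in either of the deposited RNA tables, from sorted mature olfactory sensory neurons (mOSN) and from whole main olfactory epithelium (MOE). They came to 36 of the 15988 genes in the tables together. Of these, 24 were clustered protocadherins (21 Pcdhb rows, 2 Pcdha rows and 1 Pcdhg row) and 12 were nonclustered. All 36 were in the MOE table of 14613 genes, and 34 were among the 14744 mOSN genes with values, where Pcdh18 and Pcdh20 were not listed. All 36 passed the filter on low values in MOE, and 33 of 34 passed it in mOSN, where Pcdh15 did not.

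The mice were 3 weeks old and were homozygous-null (KO), heterozygous (Het) or wild type (WT) for Dnmt3a, a de novo DNA methyltransferase gene. Which part of Dnmt3a was removed, and in which cells, is not given in the sources used here. The mOSN column of a genotype pools 2 libraries of neurons isolated by fluorescence-activated sorting. Both KO libraries were made with a NuGEN kit from 100 ng of RNA and both WT libraries with ScriptSeq from 200 ng, while Het had 1 of each, so kit and genotype cannot be told apart between KO and WT. The MOE libraries, all NuGEN, came from animals exposed for 60 min to 80 µL of amyl acetate, acetophenone and octanal in equal parts (odor) or to 80 µL of water. A habituation of 10 min is recorded for each of these libraries. Each genotype and treatment had 1 MOE library. The labels do not tie libraries to animals, so every p-value measures only the spread between these libraries.

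Protocadherins are cadherin-superfamily membrane proteins that bind the same isoform on a neighbouring cell. The clustered genes lie in tandem alpha, beta and gamma arrays. Each neuron switches on its own small set of variable promoters, a choice that depends on DNA methylation, CTCF and cohesin, and the resulting protein combination lets a neuron tell its own branches from those of others. In olfactory sensory neurons the clustered proteins take part in sorting axons into glomeruli. The nonclustered genes, most of them delta-protocadherins, are scattered over the genome and regulate adhesion, synapse removal and axon growth, and several respond to neuronal activity.

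All values are deposited RPKM-scale values, a read density per gene length and library depth, and fold changes are on the log2(value + 0.5) scale with the standard error (SE) from limma. Recovered reads ranged from 9410063 to 17639584 per MOE library. Dnmt3a was at 48.4 and 56.1 in KO MOE (odor and water), 66.6 and 50.3 in Het MOE and 89.0 and 84.4 in WT MOE, and at 56.2, 120 and 175 in KO, Het and WT mOSN, so it was still counted in KO. The Het odor library stood apart. Its 12 markers of mature olfactory neurons summed to 6715, against 11336 in Het water and 19581 to 30922 in the KO and WT libraries, and its 4 Y-linked genes (Ddx3y, Eif2s3y, Kdm5d and Uty, picked after their values were seen) summed to 172, against 355 to 455 in the other 5 MOE libraries. In mOSN the mature neuron markers summed to 69274 in KO, 95027 in Het and 100454 in WT. There 8 sustentacular cell markers summed to 439, 401 and 341, and 10 immature neuron markers to 5994, 6113 and 5904. The horizontal basal cell markers summed to 77.1, 17.4 and 9.83. The sorted cells thus carried markers of mature neurons, with immature neuron markers also present. The Y-linked sum of the mOSN columns was 94.7 in KO, 246 in Het and 454 in WT, and the sex of the animals is not among the labels. In whole epithelium, fewer cells of a type and less RNA per cell cannot be told apart.

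Exposure to odor was assayed for its effect on odorant-responsive genes. Among the protocadherins, Pcdh10 and Pcdh8 were the members with higher values after odor in every genotype by the widest margins. Pcdh10 is a delta-protocadherin whose expression in olfactory neurons depends on activity and which promotes synapse elimination. Pcdh8, also called arcadlin, is an activity-regulated delta-protocadherin that in hippocampal neurons drives internalisation of N-cadherin. Their promoters are shown because they belong to the members with the largest odor differences. Both sequences run from 250 bases before to 50 bases after the annotated start, as given by RefSeq for GRCm38.p6, a later build than that of the deposited values. Pcdh8 lies on the minus strand at chr14:79771263-79771562 and Pcdh10 on the plus strand at chr3:45378148-45378447. Capitals mark TATAAA in Pcdh8 and TGACG, the letters of a cAMP response element half-site, in Pcdh10.
Pcdh8: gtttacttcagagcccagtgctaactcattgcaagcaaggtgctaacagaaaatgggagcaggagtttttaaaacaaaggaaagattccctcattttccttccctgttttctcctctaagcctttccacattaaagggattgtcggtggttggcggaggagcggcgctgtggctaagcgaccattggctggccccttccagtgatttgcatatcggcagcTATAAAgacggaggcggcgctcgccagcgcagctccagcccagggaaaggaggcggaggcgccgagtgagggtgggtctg
Pcdh10: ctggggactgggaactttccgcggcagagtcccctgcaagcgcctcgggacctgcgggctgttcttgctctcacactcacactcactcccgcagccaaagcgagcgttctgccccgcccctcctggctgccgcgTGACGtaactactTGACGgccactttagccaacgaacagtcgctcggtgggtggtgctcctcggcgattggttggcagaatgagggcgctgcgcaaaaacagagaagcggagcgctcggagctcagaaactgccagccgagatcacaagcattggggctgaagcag
TGACG occurred 116 and 103 bases before the Pcdh10 start, and TATAAA 30 bases before the Pcdh8 start. Promoter entries existed for 9 protocadherins, all nonclustered. TGACG was searched on both strands and found in 2 of the 9 genes (Pcdh10 and Pcdh9), against 20.8% of all 32851 mouse promoter entries. TATAAA was searched on the gene's strand and found in 2 of the 9 (Pcdh8 and Pcdh15), against 8.32% of all entries. The full element TGACGTCA (1.79% of all entries, both strands) and TGANTCA (7.81%, both strands) were in none of the 9, and GCGNGGGCG (5.55%, both strands) was in Pcdh17 alone. A match to TGACGTCA would also hold TGACG. The Pcdh10 window held 24 CpG dinucleotides and the Pcdh8 window 14, against a median of 7 over all entries. The windows of the other protocadherins held from 4 (Pcdh20) to 26 (Pcdh17), so these counts are not particular to Pcdh10 and Pcdh8. These matches describe letters, and binding at them was not measured.

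Pcdh10 had a value of 329 with odor against 31.4 with water in KO, 248 against 90.0 in Het, and 248 against 109 in WT. The 3 odor libraries all lay above the 3 water libraries, and the KO odor library was the highest and the KO water library the lowest of the 6. The log2 fold change with odor was 3.37 in KO, 1.46 in Het and 1.18 in WT, each with no replicate. Fitted over the genotypes it was 2.001 ± 0.43 (SE), with limma's adjusted p = 0.882 over all genes, and it was 1.32 without the KO pair. Pcdh10 was the only protocadherin at least 2-fold higher in each genotype, a pattern met by 0.185% of all genes and already known when the members were chosen, and no member was at least 2-fold lower in each (0.0959% of all genes).

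Pcdh8 had a value of 129 with odor against 77.7 with water in KO, 162 against 59.2 in Het, and 219 against 70.2 in WT. The water libraries were alike in the 3 genotypes, whereas among the odor libraries KO was the lowest and WT the highest, and no odor library overlapped a water library. The log2 fold change was 0.73 in KO, 1.44 in Het and 1.63 in WT, and 1.27 ± 0.22 fitted over the genotypes, with limma's adjusted p = 0.882. For comparison, the immediate-early gene Fos was at 322, 341 and 523 with odor against 22.4, 29.2 and 20.7 with water in KO, Het and WT.

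**Figure D1:**
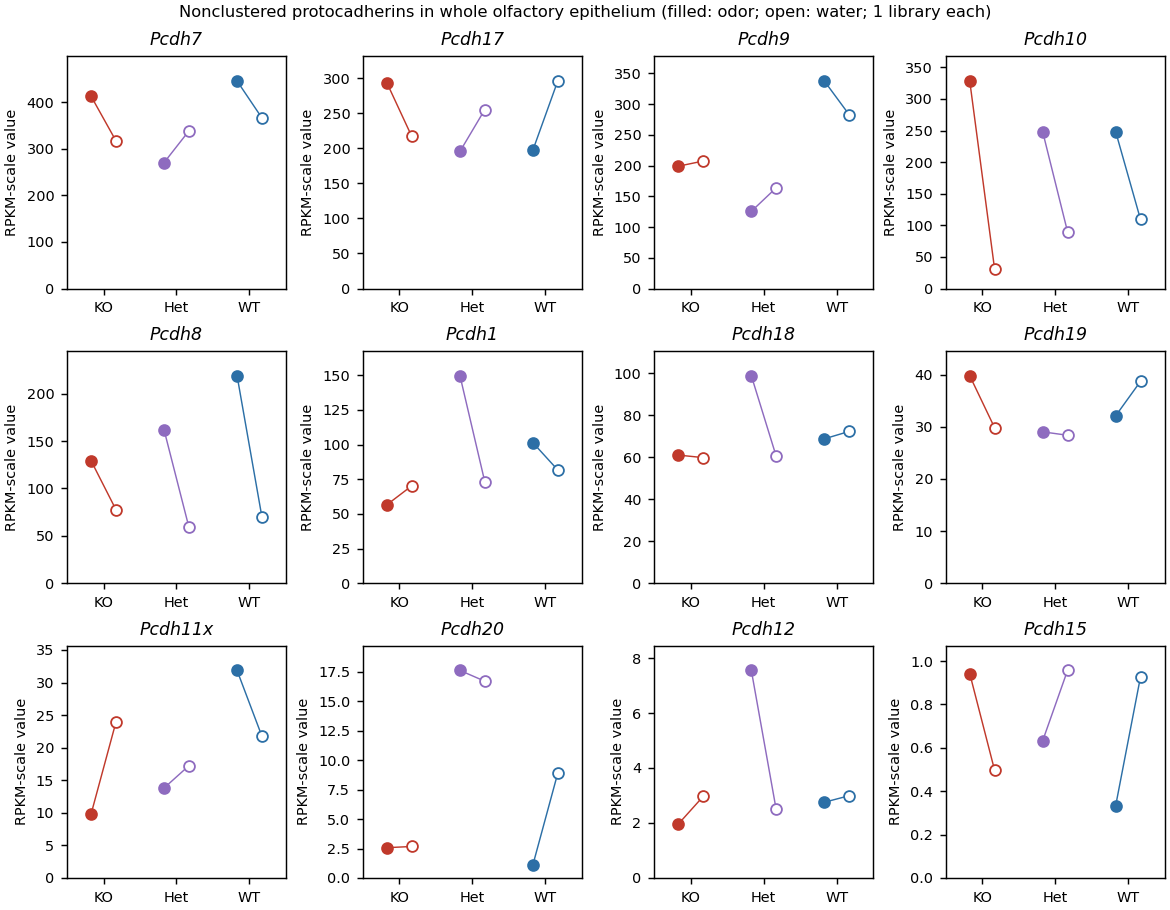
Values of the 12 nonclustered protocadherins in each MOE library, with the deposited RPKM-scale value on a linear y axis from 0 and genotype on the x axis. Filled points are odor, open points water, and lines join the 2 libraries of a genotype. Pcdh10 and Pcdh8 have every filled point above every open point.

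No protocadherin passed limma's adjusted p of 0.05 for odor over water, where 0.0137% of all genes did. At an unadjusted p under 0.05, 2 members were higher (Pcdh10 and Pcdh8) against 3.01% of all genes, and 1 was lower (Pcdha3) against 1.86%. All odor libraries lay above all water libraries for 3 of 36 members, Pcdh10, Pcdh8 and Pcdhb17 (8.33%, against 7.77% of all genes). They lay below for 2 of 36, Pcdhb9 and Pcdha3 (5.56%, against 4.75%). Both shares are near those of all genes. In the same comparison 8 of 9 sustentacular cell markers were higher (median log2 0.62), 5 of 6 microvillous cell markers were higher (median 0.45) and 10 of 12 mature neuron markers were lower (median -0.17), and their part in the protocadherin values was not tested. Over the 12 nonclustered members the median log2 fold change was 0.09, with 7 higher and 5 lower, against 0.00 over all genes, of which 50.1% were higher.

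The other abundant nonclustered members differed with odor in opposite directions between genotypes. Pcdh7, a delta-protocadherin that binds protein phosphatase 1, had the highest mean of the 12 and was at 413 with odor against 318 with water in KO, 271 against 339 in Het, and 446 against 367 in WT. Pcdh17, which organises presynaptic terminals and axon growth, was at 293 against 217 in KO, 195 against 255 in Het, and 197 against 296 in WT. Pcdh17 was thus higher with odor in KO alone, and its fitted log2 fold change with odor was -0.18 ± 0.23 (limma adjusted p = 0.918), while that of Pcdh7 was 0.11 ± 0.19 (adjusted p = 0.938). Pcdh1, an adhesion protein of airway epithelium, was at 56.7 against 70.3 in KO, 150 against 73.2 in Het, and 101 against 81.7 in WT. Pcdh18, a delta-protocadherin known to bind the adaptor Dab1, was at 98.8 in Het odor and between 59.8 and 72.3 in the other 5 libraries. In these 2 genes the Het odor library was the highest of the 6, and the fitted log2 fold changes with odor were 0.34 ± 0.28 for Pcdh1 and 0.22 ± 0.22 for Pcdh18 (limma adjusted p = 0.882 and 0.893). Pcdh19, an X-linked partner of N-cadherin, stayed between 28.4 and 39.8, with a log2 fold change at 0.06 ± 0.23 (limma adjusted p = 0.982).

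Pcdh20, Pcdh12 and Pcdh15 had the lowest mean values of the 12 nonclustered members. Pcdh20, reported in a subset of mouse olfactory neurons and to differ there between the sexes, was at 2.57 with odor and 2.67 with water in KO, 17.6 and 16.7 in Het, and 1.13 and 8.90 in WT. Both Het libraries were the highest, and the WT pair differed by a log2 of -2.53 on 6 reads with odor and 49 with water. Its fitted log2 fold change with odor, -0.83 ± 0.60, was the most negative of the 36 (limma adjusted p = 0.882). The Y-linked sum was 436 and 355 in KO, 172 and 358 in Het, and 370 and 455 in WT, and the part of the sex mix in the Pcdh20 values was not tested. Pcdh12, an endothelial protocadherin, was at 7.55 in Het odor and between 1.96 and 2.99 elsewhere, on 15 to 87 reads. The sum of 7 endothelial markers was likewise highest in Het odor, at 137 against 72.9 to 96.9 in the other libraries. So were the horizontal basal, mesenchymal, macrophage, sustentacular, progenitor and immature neuron sums, but not those of the other marker lists. The part of any cell type in the Pcdh12 value was not tested. Pcdh15, a tip-link protein of hair cells, stayed under 1 in all 6 libraries.

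In the clustered genes odor was accompanied by small differences. The median log2 fold change of the 24 was -0.12, with 8 higher and 16 lower, where 49.9% of all genes were lower. It was -0.04 in KO, -0.38 in Het and -0.00 in WT, and -0.05 with 11 higher and 13 lower when the Het pair was left out. The lowest of the 24 was the row named Pcdha3, at 28.1 with odor against 49.0 with water in KO, 25.9 against 62.2 in Het, and 45.2 against 56.1 in WT. All 3 of its odor libraries lay below its 3 water libraries, with a fitted log2 change of -0.78 ± 0.24 (limma adjusted p = 0.882) on 61 to 163 reads. Pcdhb9, one of the beta-protocadherins, which lack the shared constant exons of the alpha and gamma genes, was at 43.7 against 60.8 in KO, 58.3 against 83.2 in Het, and 58.0 against 68.8 in WT. It too had no overlap between odor and water, at a fitted log2 change of -0.41 ± 0.17 (limma adjusted p = 0.882).

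**Figure D2:**
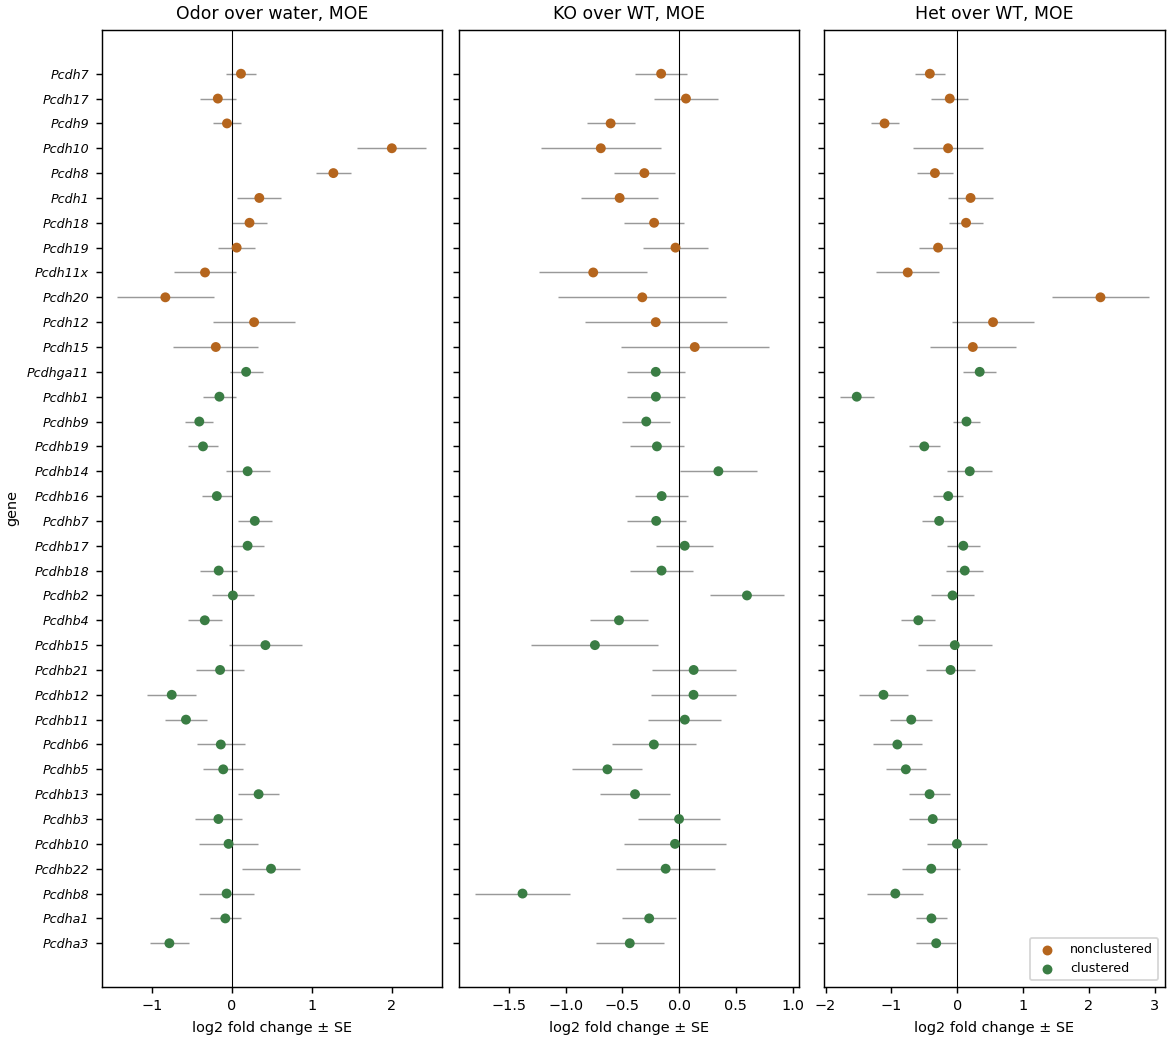
Fitted log2 fold change (x axis, points) with its SE (lines) for each of the 36 protocadherins (y axis) in MOE, for odor over water, KO over WT and Het over WT. Brown marks nonclustered and green clustered members. Pcdh10 (2.001) and Pcdh8 (1.27) stand to the right for odor, Pcdhb8 (-1.38) to the left for KO, and Pcdh20 (2.18) and Pcdhb1 (-1.53) at either end for Het.

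Whether the odor response depended on Dnmt3a was asked as the odor effect in KO minus the mean odor effect in WT and Het. It rests on 1 residual degree of freedom and takes WT and Het to respond alike. No member passed the adjusted threshold, as for all genes (0.0%). Pcdh10 had the most positive difference, 2.05 ± 0.34 (limma adjusted p = 0.318). As given above, its KO odor value was the highest of the odor values and its KO water value the lowest of the water values. Pcdh11x, an X-linked delta-protocadherin, had the most negative difference, -1.36 ± 0.64 (limma adjusted p = 0.760), with 9.83 with odor against 23.9 with water in KO, 13.8 against 17.2 in Het and 31.9 against 21.8 in WT. At an unadjusted p under 0.05, 3 of 36 were higher (Pcdh10, Pcdh17 and Pcdhb15, against 3.75% of all genes) and none lower (3.36%). The difference for Pcdh17 was 0.92 ± 0.32 (limma adjusted p = 0.665). In Pcdhb15 it rested on a low KO water value of 10.0 from 22 reads, against 32.1 in KO odor. The clustered median difference was 0.02, with 14 of 24 higher (49.7% of all genes), and turned to -0.04 with quantile normalization. In the same comparison 11 of 12 mature neuron markers were higher (median 0.79) and all 5 horizontal basal cell markers lower (median -1.68), and their part in the protocadherin values was not tested.

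Between KO and WT epithelium, most protocadherins had slightly lower values in KO. Of the 24 clustered members 18 were lower, with a median log2 fold change of -0.20, and of the 12 nonclustered 10 were lower, with a median of -0.26. Over all genes 51.5% were lower and the median was -0.01. No member passed the adjusted threshold (0.0% of all genes). Both KO libraries lay below both WT libraries for 12 of the 36 (33.3%, 9 clustered and 3 nonclustered), against 13.3% of all genes, and above them for Pcdhb2 alone (12.4% of all genes). That the clustered genes were mostly lower in KO was known when the members were chosen. In the same libraries 10 of 12 mature neuron markers were higher in KO (median 0.18), 9 of 10 progenitor markers were lower (median -0.19) and all 7 ensheathing and Schwann cell markers were lower (median -0.56).

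Pcdhb8 had the most negative KO fold change, with values of 3.60 with odor and 5.44 with water in KO, 6.20 and 6.17 in Het, and 13.9 and 10.97 in WT. KO, Het and WT did not overlap in that order, and the KO over WT log2 fold change was -1.38 ± 0.42 (limma adjusted p = 1.00), on 15 to 66 reads. Pcdh9, a delta-protocadherin with a role in sensory cortex development, was at 199 and 207 in KO, 125 and 164 in Het, and 338 and 283 in WT. All 4 mutant libraries were below both WT libraries, and its log2 fold changes were -0.60 ± 0.21 for KO over WT (limma adjusted p = 1.00) and -1.11 ± 0.21 for Het over WT (limma adjusted p = 0.706). These 2 comparisons share the WT libraries. Pcdhb8 and Pcdh9 were the members lower in KO at an unadjusted p under 0.05, which 0.966% of all genes were, and none was higher (1.27%). Pcdhb2 had the most positive KO fold change, at 49.8 and 34.0 in KO, 22.01 and 29.9 in Het and 26.3 and 27.8 in WT, a log2 of 0.60 ± 0.33 (limma adjusted p = 1.00).

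For several nonclustered members the KO over WT ratio was unlike between the odor and the water libraries. Each such ratio sets a single library against a single library, with no replicate. As given above, no member passed the adjusted threshold for the KO odor difference. Pcdh10 was higher in KO among odor libraries (log2 0.40) and lower among water libraries (-1.79), which gave a fitted -0.69 ± 0.53 (limma adjusted p = 1.00). Pcdh8 was lower in KO with odor (-0.76) and slightly higher with water (0.15). Pcdh11x was lower in KO with odor (-1.65) and near WT with water (0.13). Pcdh1 and Pcdh9 were lower in KO under both treatments, at -0.83 with odor and -0.22 with water for Pcdh1, and at -0.76 and -0.45 for Pcdh9.

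Het epithelium was lower than WT for most clustered members. Of the 24, 19 were lower, with a median log2 fold change of -0.35, against 0.02 over all genes, of which 47.4% were lower and 52.6% higher. This count and that of KO over WT share the WT libraries and are not independent. In the odor libraries alone 22 of 24 were lower (median -0.42), and in the water libraries alone, without the Het odor library, 15 of 24 (median -0.22). Both Het libraries lay below both WT libraries for 16 of 36 members (44.4%, 12 clustered and 4 nonclustered), against 18.0% of all genes, and above them for Pcdh20 alone (19.0%). No member passed the adjusted threshold (0.0% of all genes). The markers of mature olfactory neurons were lower in the same libraries. All 12 had lower values in Het (median log2 -1.05), with Omp at 249 and 1582 in Het (odor and water) against 2717 and 5962 in WT, and 8 of 10 immature neuron markers were higher (median 0.35). The part of the cell mixture in the protocadherin differences was not tested.

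Pcdhb1 had the most negative Het fold change, with 147 with odor and 237 with water in Het and 461 and 474 in KO, against 588 and 495 in WT. The Het libraries were the lowest of the 6, and the KO libraries lay just under WT. The log2 fold change was -1.53 ± 0.26 for Het over WT (limma adjusted p = 0.706) and -0.21 ± 0.26 for KO over WT (limma adjusted p = 1.00). With water alone the Het difference was -1.06. At an unadjusted p under 0.05, Pcdhb1, Pcdhb12, Pcdhb5 and Pcdh9 were lower in Het (4 of 36, against 3.99% of all genes) and Pcdh20 was higher (1 of 36, against 2.71%). Pcdh20 had a fitted log2 change of 2.18 ± 0.74 (limma adjusted p = 0.706), which was 0.87 in the water libraries alone. Pcdhb12 was at 8.59 and 16.0 in Het, 27.4 and 29.8 in KO, and 16.6 and 41.1 in WT, so the higher Het value was just under the lower WT value.

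Within the beta cluster a single gene stood far above the rest. Pcdhb1, the first gene of the array, had 2172 in KO, 3105 in Het and 3687 in WT mOSN, or 58.9% and 84.2% of WT in KO and Het. The mature neuron markers summed to 69274, 95027 and 100454 in these mOSN columns, and their part in the Pcdhb1 values was not tested. The other 20 beta genes had medians of 34.3, 33.9 and 41.7 in the same columns, and the highest of them (Pcdhb14 or Pcdhb17) was between 111 and 130. Pcdhb1 thus made up 70.7% of the summed beta values in KO, 75.4% in Het and 77.7% in WT mOSN. In whole epithelium its share was 44.5% and 45.2% in KO (odor and water), 24.1% and 28.2% in Het, and 48.2% and 44.4% in WT. Without Pcdhb1 the beta sum was 900 in KO, 1012 in Het and 1057 in WT mOSN. In MOE it was 575 and 574 in KO, 465 and 601 in Het, and 631 and 620 in WT. Pcdhb8 was the lowest beta gene in every mOSN column, at 10.2, 6.90 and 11.1. Beta genes share much of their sequence, and how the authors counted reads that match several of them is not stated, so the split between near-identical members is uncertain.

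**Figure D3:**
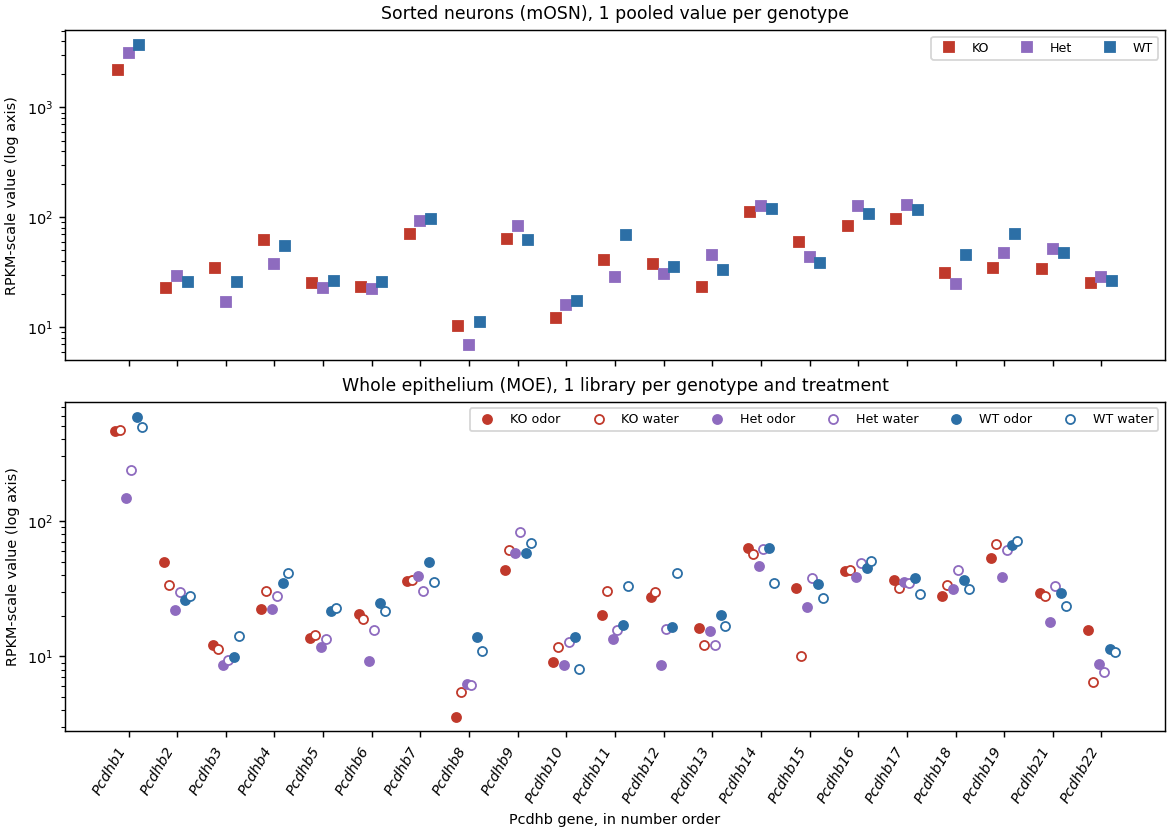
RPKM-scale values (log y axis) of the 21 beta-protocadherins in number order (x axis). The upper panel shows the pooled mOSN value of each genotype and the lower panel the 6 MOE libraries. Pcdhb1 lies above the other 20 in every column, at 2172 to 3687 in mOSN and 147 to 588 in MOE.

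The alpha and gamma clusters were represented by 3 rows whose content is uncertain. The identifier of the row named Pcdha1 is Pcdha11 in the GRCm38.p6 reference table and that of the row named Pcdhga11 is Pcdhgc4, while that of Pcdha3 has no match there. The length implied by reads and values was 9.72 times the beta median for the Pcdha1 row, 13.7 times for the Pcdhga11 row and 0.68 times for the Pcdha3 row, where beta rows ran from 0.69 to 2.80. Alpha genes share constant exons among themselves, as do gamma genes, and which isoforms each row counts is not stated. The Pcdha1 row was at 49.3 and 59.0 in KO (odor and water), 53.5 and 45.5 in Het, and 60.1 and 70.2 in WT MOE. All 4 mutant libraries were below both WT libraries, with log2 fold changes of -0.26 ± 0.24 for KO over WT and -0.39 ± 0.24 for Het over WT (limma adjusted p = 1.00 and 0.706). The Pcdhga11 row was at 80.0 and 81.0 in KO, 148 and 93.7 in Het, and 89.5 and 96.6 in WT, with both KO libraries the lowest and Het odor the highest. Its log2 fold changes were -0.21 ± 0.25 for KO over WT and 0.34 ± 0.25 for Het over WT (limma adjusted p = 1.00 and 0.747).

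In sorted neurons there is 1 pooled value per genotype and no test. Over all genes 57.2% were lower and 42.8% higher in KO than in WT (median log2 -0.13), and differences are read beside that shift. Of the 24 clustered members 19 were lower in KO, with a median of -0.23, and of the 9 nonclustered that passed the filter 7 were lower, with a median of -0.16. After median-ratio scaling, which removes the shift between columns, the medians were -0.10 and -0.02 and 15 clustered members were lower. Het over WT had a clustered median of -0.10 (14 of 24 lower) and a nonclustered median of 0.14 (4 of 9 lower), against -0.02 over all genes, of which 52.4% were lower and 47.6% higher. A stepwise order with KO below Het below WT was met by 9 of 33 members (27.3%), Pcdhb1 among them, against 32.7% of all genes. The reverse order was met by 3 of 33 (9.09%, Pcdh8, Pcdh12 and Pcdhb15), against 21.9%.

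Few protocadherins were 2-fold apart in sorted neurons. KO was at least 2-fold higher than WT for 1 of 33 (17.5% of all genes) and at least 2-fold lower for 2 of 33 (2.84%). The higher one was Pcdh12, at 7.40 in KO, 3.93 in Het and 2.49 in WT. The endothelial marker sum ran the same way, at 54.6, 26.6 and 19.4, as did that of horizontal basal cells, at 77.1, 17.4 and 9.83. The mesenchymal (85.3, 65.8 and 47.0), microvillous (446, 330 and 236), sustentacular, progenitor and macrophage sums also fell in that order. Those of Bowman gland, ensheathing and Schwann cells and immature neurons did not, and the mature neuron sum ran the other way. The part of any cell type or of the kit in the Pcdh12 value was not tested. The lower ones were the Pcdha3 row, at 42.5, 74.4 and 95.1 in KO, Het and WT (log2 -1.15), and Pcdhb19, at 34.3, 47.4 and 70.1 (log2 -1.02). In MOE the same comparison gave -0.44 ± 0.30 for Pcdha3 and -0.20 ± 0.24 for Pcdhb19 (limma adjusted p = 1.00 for both). Het was at least 2-fold lower than WT for Pcdhb11, at 41.0 in KO, 28.6 in Het and 69.6 in WT (1 of 33, against 2.5% of all genes), and at least 2-fold higher for none (6.89%).

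**Figure D4:**
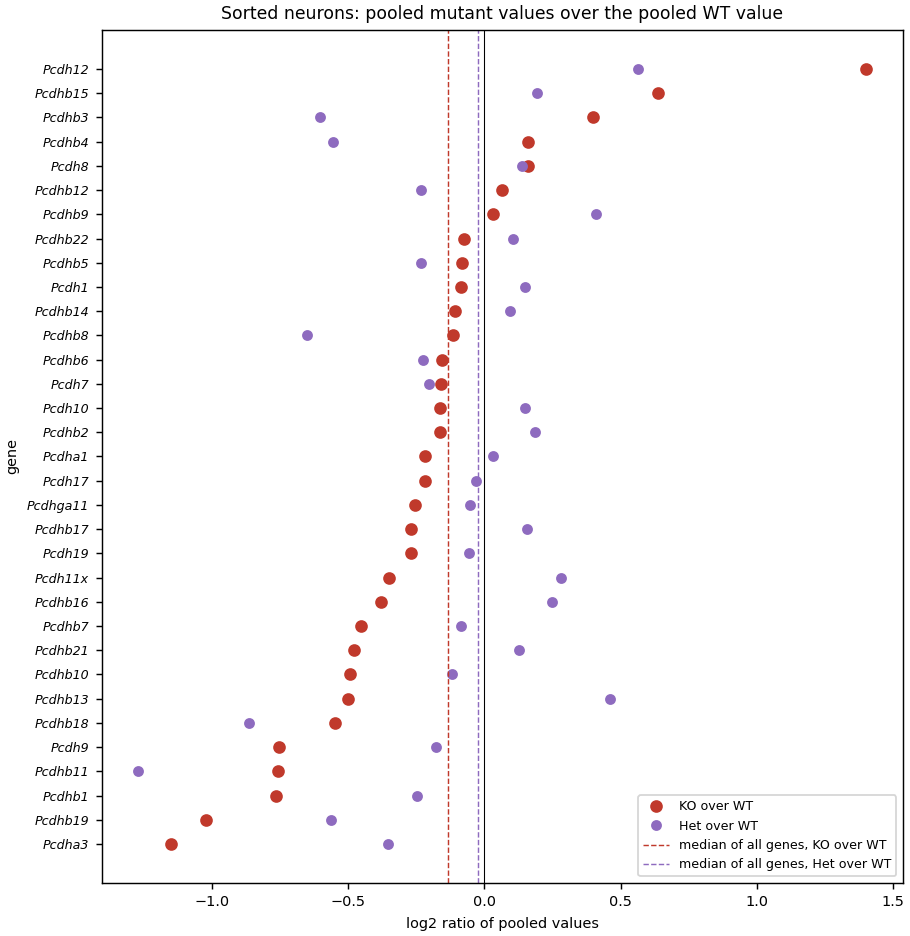
Log2 ratio (x axis) of the pooled mutant mOSN value to the pooled WT value for the 33 protocadherins that passed the filter (y axis), with larger red points for KO and smaller purple points for Het. Dashed lines mark the medians of all genes at -0.13 and -0.02. Pcdh12 lies at 1.40 for KO, and Pcdha3 and Pcdhb19 lie below -1.

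Among the nonclustered members in sorted neurons, Pcdh8 and Pcdh10 were at 89.3% to 112% of WT in KO and Het. Pcdh8 was at 346 in KO, 341 in Het and 310 in WT, and Pcdh10 at 199, 247 and 223. Pcdh9 was at 227, 340 and 384, or 59.2% of WT in KO, and was lower in KO in both tissues. The sum of 12 mature neuron markers was also lowest in KO mOSN, at 69274 against 95027 in Het and 100454 in WT. The part of that difference in the Pcdh9 values was not tested. Pcdh17 was at 255, 291 and 297, Pcdh7 at 163, 158 and 182, Pcdh1 at 80.6, 94.9 and 85.5, and Pcdh19 at 70.4, 81.7 and 85.0. KO was at 82.9% to 94.2% of WT in these 4. The X-linked Pcdh11x was at 14.1, 22.1 and 18.1.

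The tables were normalized separately, so sorted neurons and water-exposed whole epithelium are set side by side as percentiles among the rows of each table. All MOE and KO mOSN libraries were NuGEN, but the WT mOSN libraries and part of the Het ones were ScriptSeq. Outside KO, library kit thus differs along with tissue, and its part in the ranks was not tested. By the mean percentile over genotypes, clustered protocadherins ranked higher in mOSN for 22 of 24 members (91.7%), against 58.1% of all genes found in both tables. Of the 24, 19 ranked higher in mOSN in every genotype, a count not made over all genes. The median percentile of the 24 was 55.8 in mOSN and 41.1 in MOE. Nonclustered members ranked higher in mOSN for 8 of 10, and in every genotype for 6 of 10. Their median percentiles were 77.5 in mOSN and 63.0 in MOE, but the median of their differences was only 5.04 percentile points. That median was 16.5 for the 24 clustered members and 2.298 over all genes found in both tables. The widest differences were those of Pcdhb17 (34.9 percentile points), Pcdhb22 (29.8), Pcdh8 (28.9), Pcdhb7 (27.7) and Pcdh19 (27.5). Pcdhb1 was at percentile 99.6 in mOSN and 93.1 in MOE. The Pcdhga11 row (-14.3), Pcdh7 (-9.03), Pcdhb19 (-4.83) and Pcdh15 (-0.91) ranked lower in mOSN.

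**Figure D5:**
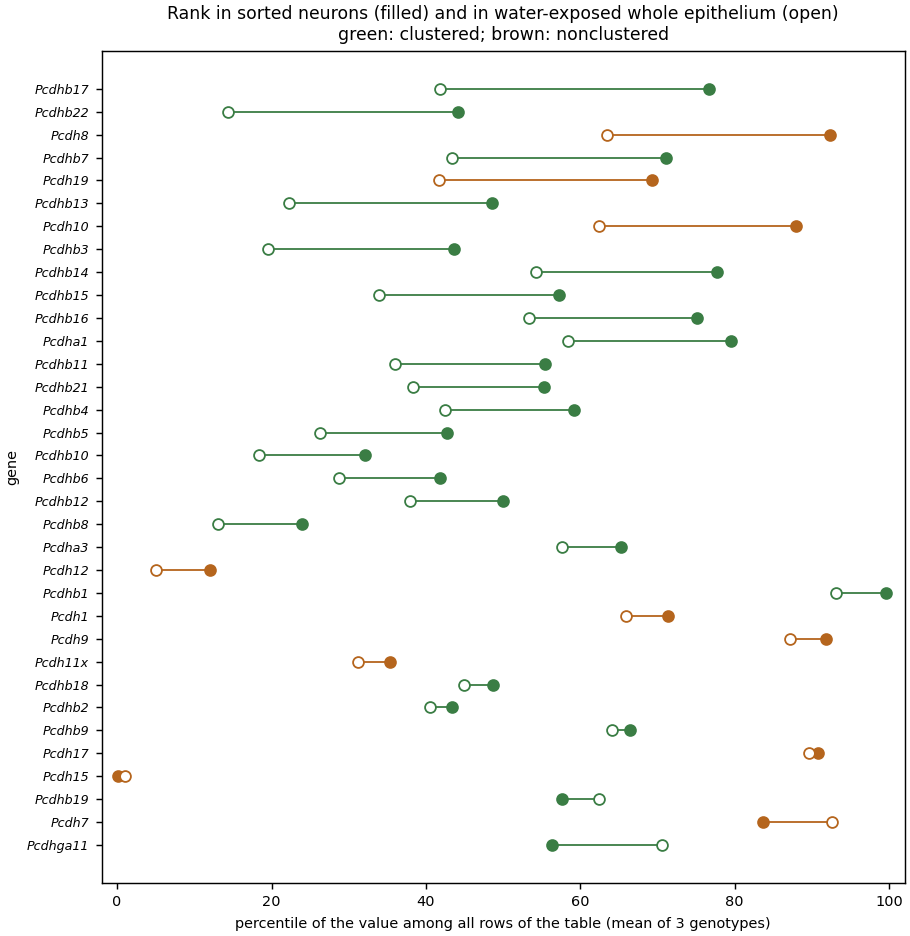
Percentile of each protocadherin found in both tables (y axis) among all rows of the mOSN table (filled) and among those of water-exposed MOE (open), each the mean of 3 genotypes. Green marks clustered and brown nonclustered members, ordered by the difference. The filled point lies to the right for 30 of the 34 members.

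Other genes of the pathway gave no call either. Of 21 regulators of protocadherin promoter choice and chromatin in MOE, among them Ctcf, the cohesin subunit Rad21 and the clustered-protocadherin repressor Smchd1, 5 were higher and 16 lower in KO, and likewise 5 higher and 16 lower in Het. The list includes Dnmt3a, the targeted gene, which is among the lower ones in both. Over all genes 51.5% were lower in KO and 47.4% in Het. Both comparisons share the WT libraries, so their counts are not independent. Ctcf was at 345 and 296 in KO (odor and water), 265 and 279 in Het, and 265 and 305 in WT, and Smchd1 was at 203 and 186 in KO, 226 and 211 in Het, and 207 and 222 in WT. For Ctcf the values of both mutants overlapped those of WT, and for Smchd1 the KO values lay just under both WT values. Of 25 cytoplasmic partners and shedding enzymes, such as the tyrosine kinase Fyn and the protease Adam10, 14 were higher and 11 lower in KO, and 20 higher and 5 lower in Het. Of 29 other cadherin-superfamily genes 11 were higher and 18 lower in KO, 18 higher and 11 lower in Het, and 21 higher and 8 lower with odor. With odor 11 regulators were higher and 10 lower, and 16 partners and shedding enzymes were higher and 9 lower. For the KO odor difference 16 regulators were higher and 5 lower. There 11 partners and shedding enzymes were higher and 14 lower, and 11 other cadherin-superfamily genes higher and 18 lower. Over all genes 48.5% were higher in KO, 52.6% in Het, 50.1% with odor and 49.7% for the KO odor difference. The part of the cell mixture in these counts was not tested. None of the 3 lists held a gene that passed limma's adjusted threshold in any of the 4 MOE comparisons. Dnmt3b, the methyltransferase known to act on clustered protocadherin promoters in mice, was between 0.63 and 1.19 in MOE, and at 1.89, 0.71 and 0.65 in KO, Het and WT mOSN.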

How the data were processed

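RNA was measured by RNA-seq after rRNA depletion, per the labels' protocols, in 6 MOE and 6 mOSN libraries. The authors deposited values named RPKM, with 1 column per MOE library and 1 pooled column per genotype in mOSN, without saying how the pair of libraries was merged. The submitters' processing notes name featureCounts, DESeq, STAR 2.3.0, Bowtie2 2.1 and Picard 1.64, and the builds NCBIM37 and mm9, with no role for any. The other 21 samples of the series were not analysed here.

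From the deposited RPKM values, log2(value + 0.5) was computed for genes that reached 0.5 in a minimum of 2 columns (14602 genes in MOE, 14738 in mOSN). MOE was fitted on all genes with limma 3.58.1 in R 4.3.3 (two-sided moderated test, variance trend on expression level, Benjamini-Hochberg adjustment). Odor was tested with genotype as a block and genotypes with treatment as a block, on 2 residual degrees of freedom, so genotype-specific odor responses enter the error term. Whole reads were recovered from the ratios between libraries for all 14613 MOE genes (100%, relative tolerance 1e-12, except for any common divisor of a gene's 6 counts). The fit and the recovery were tested on simulated data. The mOSN columns had no test, and ratios past 2-fold were counted. Depth of the mOSN columns is unknown.

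Fold changes to print were drawn from nonclustered members with an MOE mean of at least 1, the 3 most abundant members of each cluster and the extreme members of each comparison. Not every one of these members has its fold change printed for every comparison. The members and the gene lists were chosen with earlier results of these data known. Promoter sequences came from RefSeq tables of GRCm38.p6, and 35 of 36 identifiers matched the reference, 33 of them under the same name. Alternatives covered the pseudocount, the filter, the scaling, the trend, voom on the recovered reads, the genotype block and leaving out libraries or pairs.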

Additional observations from a re-analysis of the deposited data

How the results depend on the processing

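With 1 library per genotype and treatment, no protocadherin passed limma's adjusted p of 0.05 in any comparison or alternative, and this design cannot show that nothing differed. No paired analysis was possible because replicate numbers are given for mOSN libraries, whose table holds 1 pooled value per genotype, so the planned replicate block was not run. In MOE the genotype block of the odor test sets odor against water within each genotype. Low reads limit Pcdh20 (6 to 124 per MOE library), Pcdh12 (15 to 87), Pcdhb8 (15 to 66) and Pcdhb10 (23 to 40), among others, and counting error in mOSN is unknown.

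The number of genes called for odor over water was 2 and became 1 with median-ratio scaling, 0 without the mean-variance trend, 6 with voom on the recovered reads and 1 without the genotype block. It ranged from 0 to 4 when a library or pair was left out. For Het over WT the number was 0, and 27 without WT water. Odor fold changes changed sign for Pcdhb2 with median-ratio scaling (-0.011) and for Pcdhb8 with voom (0.034), as did the KO odor difference of Pcdha3 with median-ratio scaling (0.0050). The cause was not tested. The clustered median for odor was -0.041 in KO, -0.38 in Het and -0.0014 in WT alone. The clustered median in KO over WT was -0.27 in odor libraries alone, and that in Het over WT -0.42 in odor and -0.22 in water libraries alone. In mOSN, median-ratio scaling gave KO medians of -0.10 (clustered) and -0.024 (nonclustered). Past 3-fold, 1192 genes differed in KO and 400 in Het mOSN, with 0 protocadherins in either, and a pseudocount of 2 left 841 genes past 2-fold in Het, against 1384.

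Leaving out 1 library or pair gave the following lowest and highest log2 values where a sign or a median moved. For odor over water they were -0.78 and 0.11 for Pcdh11x, -0.30 and 0.66 for Pcdh12, -0.48 and 0.025 for Pcdh17, -0.022 and 0.37 for Pcdh18, -0.12 and 0.22 for Pcdh19, -1.29 and 0.014 for Pcdh20, -0.021 and 0.33 for Pcdh7, and -0.22 and 0.10 for Pcdh9. In the clustered members they were -0.24 and 0.0036 for Pcdha1, -0.36 and 0.11 for Pcdhb1, -0.26 and 0.23 for Pcdhb2, -0.26 and 0.17 for Pcdhb8, -0.063 and 0.32 for Pcdhga11, -0.23 and -0.046 for the clustered median, and -0.011 and 0.15 for the nonclustered one. For KO over WT they were -1.72 and 0.33 for Pcdh10, -0.78 and 0.37 for Pcdh12, -0.40 and 0.52 for Pcdh17, -0.30 and 0.23 for Pcdh19, -1.60 and 0.95 for Pcdh20, -0.36 and 0.041 for Pcdh7, and -0.71 and 0.10 for Pcdh8. In the same comparison they were -0.51 and 0.10 for Pcdhb1, -0.40 and 0.0072 for Pcdhb19, -0.42 and 0.0087 for Pcdhga11, -0.35 and -0.15 for the clustered median and -0.33 and -0.038 for the nonclustered one. For Het over WT they were -0.31 and 0.71 for Pcdh1, -0.76 and 0.48 for Pcdh10, -0.32 and 1.40 for Pcdh12, -0.42 and 0.19 for Pcdh17, -0.23 and 0.50 for Pcdh18, -0.68 and 0.035 for Pcdha3, -0.41 and 0.26 for Pcdhb2, and -0.021 and 0.70 for Pcdhga11. The Het medians ranged from -0.43 to -0.22 (clustered) and from -0.25 to 0.21 (nonclustered), and the clustered KO odor difference from -0.12 to 0.19. For the KO odor difference they were -0.67 and 0.10 for Pcdh18, -0.12 and 2.48 for Pcdh20, -0.31 and 0.32 for Pcdh9, -0.48 and 0.45 for Pcdha3, -0.29 and 0.64 for Pcdhb1, -0.25 and 0.32 for Pcdhb19, -0.23 and 0.039 for Pcdhb9, and -0.68 and 0.092 for Pcdhga11.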
